A study of Rattus norvegicus with 3 samples.

Results

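7 genes of the corticosteroid system were followed through the cell classes of the rat nucleus accumbens, a ventral striatal region, in the single-nucleus libraries of the study. They are the glucocorticoid receptor Nr3c1 (ENSRNOG00000014096), the mineralocorticoid receptor Nr3c2 (ENSRNOG00000034007), the steroid-activating enzyme Hsd11b1 (ENSRNOG00000005861), the receptor co-chaperone Fkbp5 (ENSRNOG00000022523) and the glucocorticoid response genes Sgk1 (ENSRNOG00000011815), Tsc22d3 (ENSRNOG00000056135) and Errfi1 (ENSRNOG00000058186). They were taken by gene symbol, and all 7 were found once each among the 23098 features counted.

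The study classed outbred Wistar rats as high or low in anxiety by their behaviour in a maze and an open field. Each group was sequenced as 1 library of droplet-captured nuclei, made from accumbens punches of 5 hemispheres pooled at 16 weeks of age. The first group, called urolithin A, was high-anxiety rats given the gut-microbial metabolite urolithin A for 2 months. The second, called high anxiety, was high-anxiety rats with no treatment, and the third, called low anxiety, was low-anxiety rats with no treatment. With 1 pooled library per group no difference between groups has a replicate check. No test was made, and every interval below is an exact 95% interval that covers counting error only. Differences between animals, punches and library preparations cannot be told apart from differences between the groups.

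Corticosterone, the main glucocorticoid of the rat, acts through both receptors. The mineralocorticoid receptor binds it with the higher affinity and is largely occupied at resting levels, while the glucocorticoid receptor is occupied as levels climb during the daily peak or stress. Unbound glucocorticoid receptor is held by heat shock proteins and co-chaperones such as FKBP5. The hormone-bound receptor enters the nucleus and acts on target genes through response elements made of a pair of short inverted sites. Hsd11b1 encodes the enzyme that regenerates corticosterone from its inactive 11-keto form inside cells, and Fkbp5, Sgk1, Tsc22d3 and Errfi1 are among the genes that glucocorticoids induce in many tissues.

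The libraries held 19162530 unique molecular identifiers (UMIs, each standing for 1 captured RNA molecule) in the urolithin A library, 22095390 in the high anxiety library and 16728049 in the low anxiety library. In the same order 3421, 3694 and 3379 nuclei passed the filters on genes, mitochondrial UMIs and doublets, with medians of 4726, 4549.5 and 3952 UMIs. Pairs of libraries shared 4 to 6 cell barcodes, none with equal totals. Clustering without the 7 genes among the variable genes gave 23 clusters, which were named from lists of markers. The 3 classes of medium spiny neuron, the projection neurons of the striatum, were D1 neurons (768 urolithin A, 665 high anxiety and 777 low anxiety nuclei), D2 neurons (610, 565 and 614) and eccentric neurons (236, 321 and 364). D1 nuclei carried 1179, 1143 and 1189.5 CPM of D1 markers against 157, 178 and 203 CPM of D2 markers. Eccentric nuclei carried 4610, 4987 and 4362 CPM of eccentric markers, beside 4225, 4819 and 3750 CPM of interneuron markers. Shared medium spiny neuron markers summed to 8104, 8991 and 7797.5 CPM in them. The mean log2 enrichment of those shared markers was 0.37 in eccentric cluster 8, -1.40 in cluster 15 and -0.91 in cluster 18. The name is therefore less secure for clusters 15 and 18. GABAergic interneurons counted 364, 184 and 162 nuclei, astrocytes 124, 139 and 225, oligodendrocytes 704, 775 and 565, their precursors 140, 134 and 134 and microglia 169, 259 and 203. Glutamatergic neurons, which the accumbens is not known for, made up 21, 198 and 99 nuclei, and neuroblasts 3, 108 and 36. Levels are given in CPM, the UMIs of a gene as a share of all UMIs of the class in a library on the usual scale of that unit. In summed nuclei, fewer expressing nuclei and less RNA per nucleus cannot be told apart.

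A pair of promoter sequences, read from a RefSeq table on the GRCr8 build, show the stretches upstream of response genes on which the results turn. Tsc22d3 is the member whose level most sets oligodendrocytes apart, and Errfi1 the member that was lower in the low anxiety library in several neuron classes. Each run is the 250 bases before an annotated start, 5′ to 3′ on the gene's strand, at chrX:109065431-109065680 (minus strand) for the second of 3 Tsc22d3 entries and chr5:166606591-166606840 (plus strand) for Errfi1. The capitals mark a spaced core ACANNNTGT, the centre of the glucocorticoid response element.
Tsc22d3: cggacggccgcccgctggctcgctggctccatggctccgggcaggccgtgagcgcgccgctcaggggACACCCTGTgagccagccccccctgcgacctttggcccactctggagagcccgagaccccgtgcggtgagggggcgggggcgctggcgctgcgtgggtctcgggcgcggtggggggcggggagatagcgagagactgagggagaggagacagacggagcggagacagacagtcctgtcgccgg
Errfi1: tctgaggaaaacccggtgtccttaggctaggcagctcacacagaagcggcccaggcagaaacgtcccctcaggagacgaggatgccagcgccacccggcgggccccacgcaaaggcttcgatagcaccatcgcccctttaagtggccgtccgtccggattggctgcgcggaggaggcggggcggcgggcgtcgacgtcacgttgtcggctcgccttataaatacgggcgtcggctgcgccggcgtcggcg
The full element, AGAACA and TGTTCT set 3 bases apart, was searched on both strands in windows of 300 bases around annotated starts. None of the 10 entries of the 5 members in the table (Nr3c1, Fkbp5, Errfi1, Sgk1, Tsc22d3) held it, against 0.0149% of all 33469 promoters. None held either site AGAACA or TGTTCT alone, which 20.7% of all promoters held. The spaced core, looked for after the single sites had returned nothing and able to overlap the full element, occurred once in the members, at base -183 of that Tsc22d3 entry, and in 6.86% of all promoters. Which of the starts is used in these nuclei is not shown by the counts, and a match is a description of the letters only. Nr3c2 and Hsd11b1 had no entry.

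Nr3c1 was detected in all 12 classes and was highest in astrocytes. Astrocytes had 456 CPM in the urolithin A library, 502 CPM in the high anxiety library and 456 CPM in the low anxiety library. Oligodendrocytes followed with 366, 369 and 317 CPM in the urolithin A, high anxiety and low anxiety libraries, and the ranges of these top 2 classes did not overlap. Microglia (median 294 CPM) and oligodendrocyte precursors (median 251 CPM) overlapped in range. D2 neurons (185 CPM) and D1 neurons (173 CPM) were also not separated from each other, while eccentric neurons (101 CPM) and GABAergic interneurons (82.0 CPM) lay below both. Cholinergic interneurons had 18 Nr3c1 UMIs in all and a median of 20.6 CPM. When each nucleus was thinned to 1500 UMIs, 45.8%, 48.5% and 45.3% of astrocytes in the urolithin A, high anxiety and low anxiety libraries had an Nr3c1 UMI, against 21.2%, 22.9% and 23.2% of D1 neurons (nuclei under 1500 UMIs were left out, which kept 120 of 124, 136 of 139 and 179 of 225 astrocytes and 760 of 768, 655 of 665 and 766 of 777 D1 neurons; unthinned shares were 64.5%, 67.6% and 59.6% in astrocytes and 62.4%, 65.3% and 59.2% in D1 neurons).

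Nr3c2 had another order of classes. Eccentric neurons were highest at the median, with 286 CPM in the urolithin A library, 309.9 CPM in the high anxiety library and 313 CPM in the low anxiety library. Astrocytes had 297, 265.0 and 275 CPM in the same order, and so were above eccentric neurons in the urolithin A library. Astrocytes (median 275 CPM), D2 neurons (270.4 CPM) and D1 neurons (234 CPM) came next, each overlapping its neighbour in range. Interneurons (168 CPM), glutamatergic neurons (133 CPM), oligodendrocytes (118 CPM) and oligodendrocyte precursors (81.0 CPM) followed without overlap from one class to the next, and microglia had 48.5 CPM. Astrocytes were thus high for both receptors, eccentric neurons high for Nr3c2 and low for Nr3c1 among the medium spiny neurons, and oligodendrocytes and microglia high for Nr3c1 and low for Nr3c2.

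The balance of the receptors was taken as Nr3c2 UMIs per Nr3c1 UMI, which can be read between classes but not as the relative amount of the 2 proteins. In eccentric neurons it was 2.85 (2.33 to 3.49) in the urolithin A library, 2.65 (2.29 to 3.08) in the high anxiety library and 3.46 (2.89 to 4.17) in the low anxiety library. D1 neurons had 1.36, 1.52 and 1.26 and D2 neurons 1.33, 1.44 and 1.65 in the urolithin A, high anxiety and low anxiety libraries. The order of D1 and D2 neurons thus differed between libraries, while eccentric neurons as a class were above both in all 3. The balance was uneven inside the classes. In the same order of libraries, D2 cluster 13 had 172, 121 and 147 Nr3c2 UMIs to 69, 59 and 37 Nr3c1 UMIs. Its balance was above the D1 and D2 classes in all 3 libraries, and above the eccentric class in the low anxiety library. Eccentric cluster 15 had 36, 73 and 51 Nr3c2 UMIs to 18, 63 and 27 Nr3c1 UMIs. Its balance in the high anxiety library was below the D1 and D2 classes. Glutamatergic neurons had 0.818, 0.584 and 0.739 and astrocytes 0.652, 0.527 and 0.603, with overlapping ranges. Oligodendrocytes had 0.321, 0.33 and 0.338. Microglia were lowest of the classes compared, with 0.0938, 0.201 and 0.205 on 55 Nr3c2 UMIs in all.

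**Figure D1:**
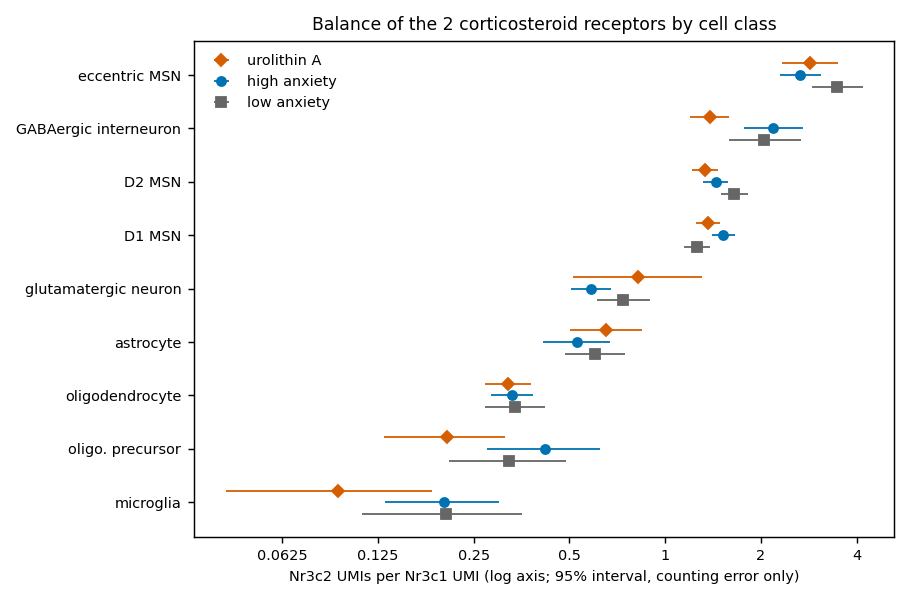
Nr3c2 UMIs per Nr3c1 UMI on a log axis for 9 cell classes (rows), with 1 point per library and exact 95% intervals for counting error. Eccentric neurons lie at 2.65 to 3.46 in the 3 libraries, above every other class drawn, and oligodendrocytes at 0.321 to 0.338.

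Hsd11b1 was an astrocyte gene in these nuclei. Astrocytes had 700.1 CPM in the urolithin A library, 692 CPM in the high anxiety library and 706 CPM in the low anxiety library. The next class, oligodendrocyte precursors, had a median of 10.1 CPM, 69.2-fold less, and D1 neurons a median of 1.71 CPM. Of 939 genes with at least 500 UMIs that were highest in astrocytes, 8 had at least that distance to their second class. An Hsd11b1 UMI was seen in 75.8%, 72.7% and 71.1% of astrocytes in the urolithin A, high anxiety and low anxiety libraries. Thinned to 1500 UMIs the shares were 65%, 64.0% and 56.4% of astrocytes, against 0.333%, 0.569% and 0.485% of oligodendrocytes. The level of free RNA was not measured, and its part in these shares was not tested. The genes with the most similar pattern over the 12 classes were Itih3 (Pearson r = 0.99), Cldn10 (0.98) and Agt (0.98), the last encoding angiotensinogen. Such r values describe 12 class means of the same 3 libraries, which also differ in depth, and carry no test.

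Within astrocytes Hsd11b1 was nearly level between libraries. The log2 ratio of CPM was 0.02 (-0.24 to 0.27) for urolithin A over high anxiety, -0.01 (-0.25 to 0.23) for urolithin A over low anxiety and -0.03 (-0.26 to 0.20) for high anxiety over low anxiety. Over all nuclei of a library the gene had 16.2 CPM in the urolithin A library, 15.5 CPM in the high anxiety library and 25.3 CPM in the low anxiety library. Astrocytes made up 3.62%, 3.76% and 6.66% of the nuclei of those libraries, so the number of astrocytes moved with the whole-library level while the level inside the class did not.

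Fkbp5, whose protein lowers the hormone affinity of the glucocorticoid receptor, was highest at the median in medium spiny neurons. Eccentric neurons had 69.5, 72.3 and 85.7 CPM, D2 neurons 58.4, 64.1 and 64.3 CPM and D1 neurons 59.0, 66.1 and 59.5 CPM in the urolithin A, high anxiety and low anxiety libraries. No neuron or glia class below them overlapped D1 neurons. Microglia had a median of 33.7 CPM, oligodendrocyte precursors 29.3 CPM, glutamatergic neurons 28.4 CPM and interneurons 28.2 CPM, so glia and other neurons were not separated there. Oligodendrocytes had a median of 20.0 CPM and astrocytes, with 10 UMIs in all 3 libraries, 8.82 CPM. The class with the highest Nr3c1 level among those compared therefore had the lowest Fkbp5 level of them. Neuroblasts had 68.4 CPM in the high anxiety library and 119 CPM in the low anxiety library, on 24 UMIs in all 3 libraries.

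Sgk1, a serum- and glucocorticoid-induced kinase that acts on ion channels and on the ubiquitin ligase Nedd4l, was highest in D1 neurons. They had 247, 281 and 249 CPM and D2 neurons 235, 259 and 235 CPM in the urolithin A, high anxiety and low anxiety libraries, with overlapping ranges. Committed oligodendrocyte precursors had 201, 156 and 267 CPM on 65 UMIs in all, and oligodendrocyte precursors 131, 104 and 147 CPM. Mature oligodendrocytes were lower, with 72.9, 45.5 and 57.2 CPM. Astrocytes were lowest, with 1 UMI in the urolithin A library, 0 in the high anxiety library (which allows up to 7.5 CPM) and 13 in the low anxiety library, whose astrocytes had 25.6 CPM. The summed level of shared medium spiny neuron markers in astrocytes was 1447, 1392.5 and 2041 CPM in the urolithin A, high anxiety and low anxiety libraries, highest where Sgk1 was highest. The part of that in the result was not tested.

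Sgk1 was uneven inside the neuron classes. In D2 neurons the main cluster had 267, 290 and 259 CPM in the urolithin A, high anxiety and low anxiety libraries. The second D2 cluster, led by Itgb6, Grpr and Casz1, had 31.7, 25.9 and 20.6 CPM. In eccentric neurons the largest cluster had 31.4, 59.7 and 47.9 CPM, and a small cluster whose name rests on a mean log2 marker enrichment of 0.19 (cluster 18) had 393, 274 and 382 CPM. That small cluster counted 16 urolithin A, 10 high anxiety and 103 low anxiety nuclei.

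Tsc22d3, which encodes the leucine zipper protein GILZ, was an oligodendrocyte gene. Oligodendrocytes had 244 CPM in the urolithin A library, 245 CPM in the high anxiety library and 267 CPM in the low anxiety library. Astrocytes came second with 44.1, 40.0 and 39.3 CPM, 6.12-fold below at the median and without overlap. Oligodendrocyte precursors had a median of 9.01 CPM and D1 neurons 7.08 CPM. Of 975 genes with at least 500 UMIs that were highest in oligodendrocytes, 6.26% were at least as far above their second class. A cluster whose leading genes include Klk6, Slc5a11 and Rasgrp3 was left without a name by the marker rule although all 11 oligodendrocyte markers were at least 2-fold enriched in it, and it had 179.7, 182 and 170.3 CPM. Dock5 (r = 0.96), Hapln2 (0.95) and Ankub1 (0.95) had the most similar pattern over the 12 classes.

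Errfi1, which encodes the EGF receptor feedback inhibitor MIG6, was spread over neurons and glia. Microglia had 110.4, 68.1 and 115 CPM in the urolithin A, high anxiety and low anxiety libraries, a range that overlapped that of oligodendrocytes (79.1, 72.5 and 76.2 CPM) and of their precursors (81.6, 69.9 and 73.4 CPM). D2 neurons had a median of 60.7 CPM, D1 neurons 55.1 CPM, eccentric neurons 40.4 CPM, interneurons 37.0 CPM and astrocytes 32.5 CPM, each overlapping its neighbour. Inside oligodendrocytes one cluster (cluster 16) had 14.4, 30.6 and 12.6 CPM while another (cluster 5) had 98.5, 101 and 106 CPM.

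**Figure D2:**
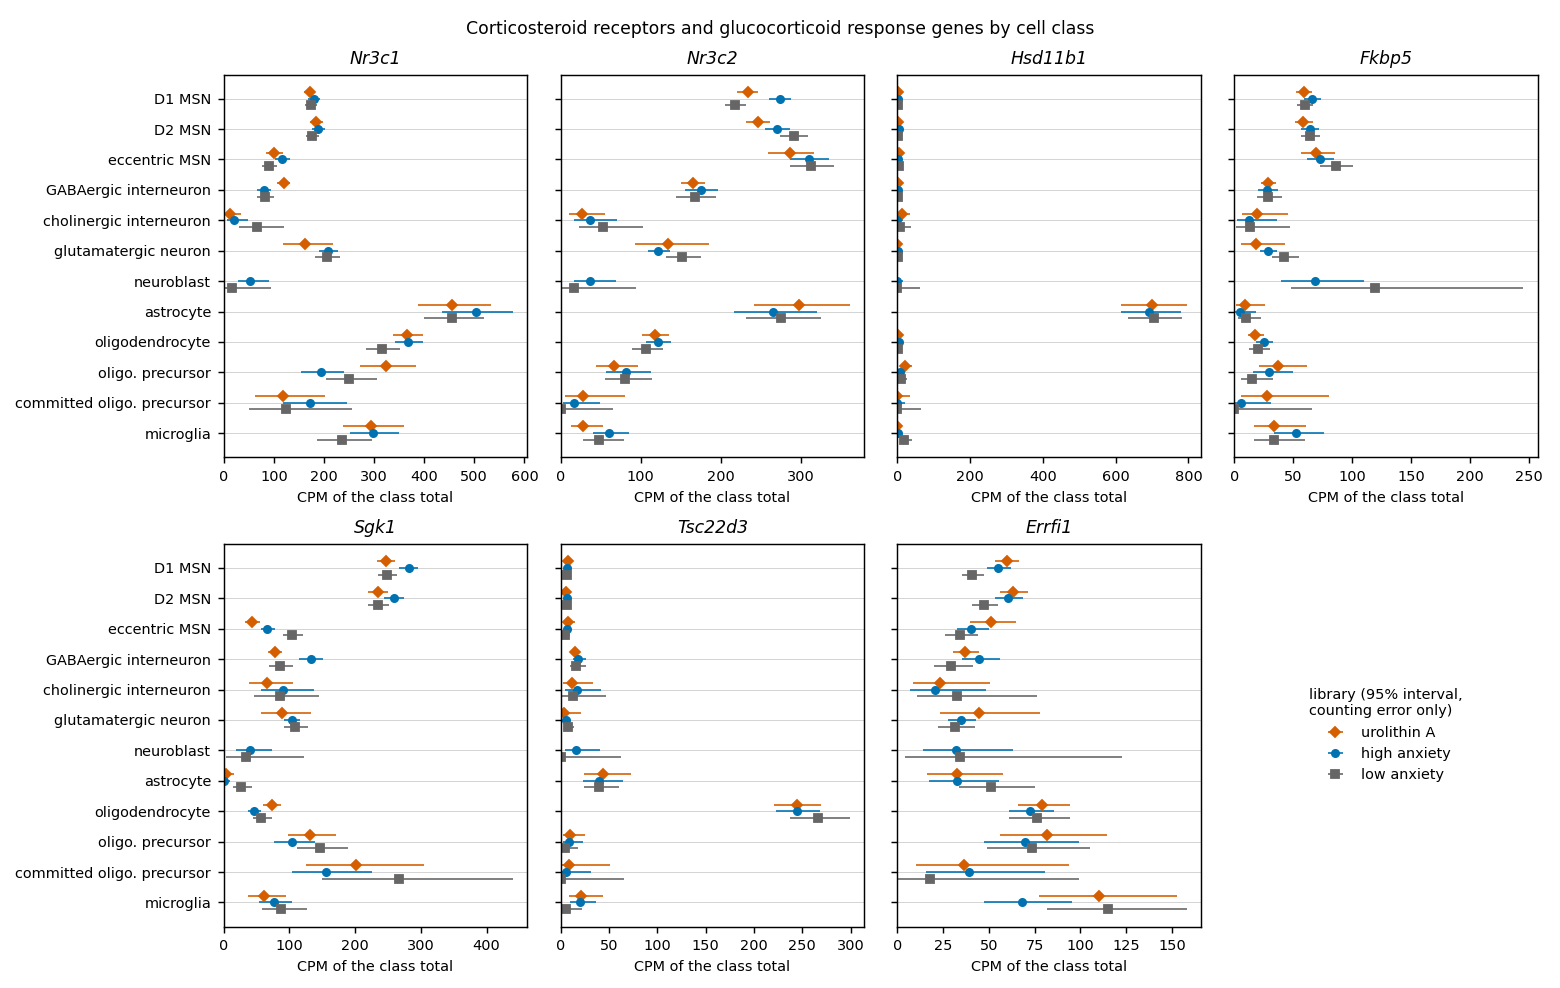
Level of each of the 7 genes, as CPM of the class total on linear axes, in 12 cell classes (rows), with 1 point per library and exact 95% intervals for counting error. Urolithin A neuroblasts (3 nuclei) are not drawn. Hsd11b1 stands out in astrocytes (692 to 706 CPM), Tsc22d3 in oligodendrocytes (244 to 267 CPM) and Sgk1 in D1 and D2 neurons (235 to 281 CPM).

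The libraries were then compared within the 8 classes that had at least 75 nuclei in each library. A member was counted as measured in a class when 1 of the 2 libraries held at least 50 of its UMIs, and as higher or lower when the larger CPM was at least 25% above the smaller. For urolithin A over high anxiety, 31 of 56 pairs of member and class were measured, and 5 were higher (16.1%) and 2 lower (6.45%), against backgrounds of 12.6% and 9.15% over all measured genes. For urolithin A over low anxiety, 7 were higher (22.6%) and 1 lower (3.23%) of 31, against 13.7% and 11%. For high anxiety over low anxiety, 7 were higher (23.3%) and 4 lower (13.3%) of 30, against 13.3% and 13.4%. The counting interval left out 0 in 5, 5 and 6 of these pairs. The higher shares lay above the background, by little for urolithin A over high anxiety. The lower shares lay below it in the comparisons with urolithin A and at it for high anxiety over low anxiety. With so few pairs these shares do not set the members apart from other genes. The comparisons share libraries, so their values stand side by side only. The median log2 ratio of the members in D1 neurons was -0.17, -0.01 and 0.18 for the 3 comparisons in that order, against 0.04, 0.01 and -0.01 over all measured genes.

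**Figure D3:**
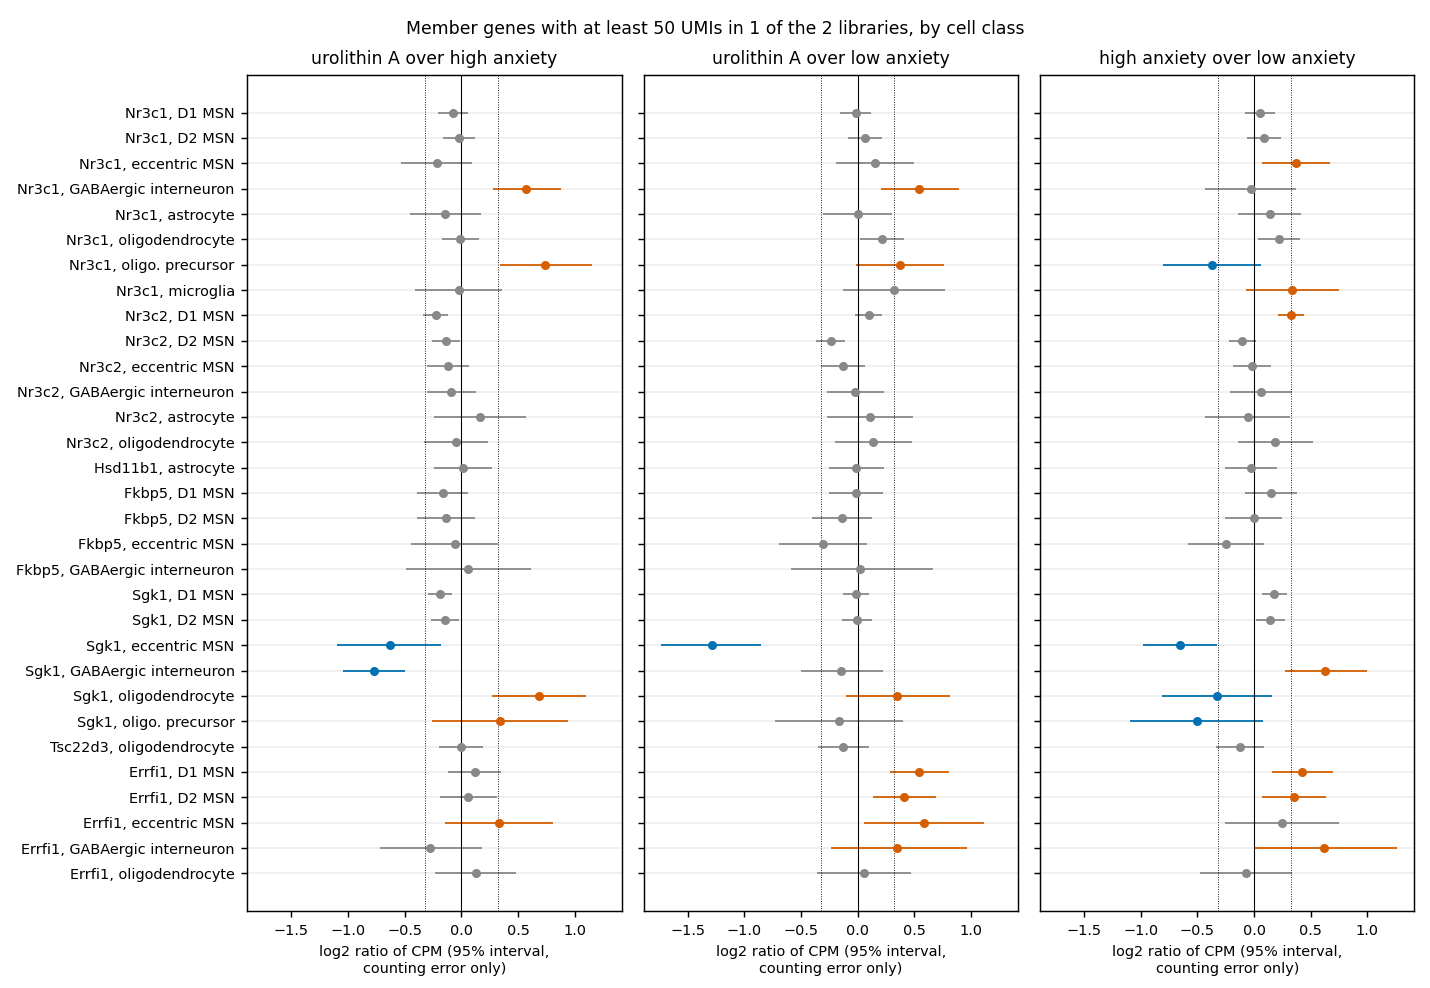
Log2 ratio of CPM for each measured pair of member and class (rows) in the 3 comparisons of libraries (panels), with exact 95% intervals for counting error. Orange points are past the 25% mark upward, blue points past it downward, and dotted lines show the mark. Errfi1 in D1 and D2 neurons lies at 0.43 and 0.35 for high anxiety over low anxiety and at 0.54 and 0.41 for urolithin A over low anxiety.

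Errfi1 was lower in low anxiety neurons. D1 neurons had 59.7 CPM (318 UMIs) in the urolithin A library, 55.1 CPM (290 UMIs) in the high anxiety library and 41.0 CPM (197 UMIs) in the low anxiety library. D2 neurons had 63.2, 60.7 and 47.5 CPM and eccentric neurons 51.0, 40.4 and 34.1 CPM in the urolithin A, high anxiety and low anxiety libraries. In all 3 classes the low anxiety library was lowest and the urolithin A library highest. In D1 neurons the log2 ratio was 0.12 (-0.12 to 0.35) for urolithin A over high anxiety, 0.54 (0.28 to 0.81) for urolithin A over low anxiety and 0.43 (0.16 to 0.70) for high anxiety over low anxiety. In D2 neurons the same ratios were 0.06 (-0.19 to 0.31), 0.41 (0.13 to 0.69) and 0.35 (0.07 to 0.63). In the D1 class 12.2% of all measured genes were higher in urolithin A over low anxiety and 9.55% in high anxiety over low anxiety, and in the D2 class 13.4% and 9.92%. Eccentric neurons had 0.34 (-0.14 to 0.81), 0.58 (0.06 to 1.11) and 0.25 (-0.25 to 0.75).

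Errfi1 was also read in the single clusters. The D1 clusters had 60.9, 51.6 and 39.0 CPM (cluster 3) and 58.0, 58.1 and 42.9 CPM (cluster 4) in the urolithin A, high anxiety and low anxiety libraries. The D2 clusters had 61.8, 61.3 and 50.3 CPM (cluster 1) and 72.3, 55.9 and 23.1 CPM (cluster 13), the last on 41, 28 and 9 UMIs. The low anxiety library was lowest in each of these 4 clusters. Among the eccentric clusters it was lowest in cluster 8, with 54.5, 45.0 and 34.4 CPM. It was not lowest in cluster 15, with 31.6, 24.1 and 36.4 CPM on 7, 9 and 9 UMIs, nor in cluster 18, with 3, 0 and 8 UMIs. The high anxiety library was highest in all 3 interneuron clusters. In GABAergic interneurons the gene had 37.0, 44.7 and 29.1 CPM, with ratios of -0.27, 0.34 and 0.62 for urolithin A over high anxiety, urolithin A over low anxiety and high anxiety over low anxiety, and the low anxiety value rests on 32 UMIs. Oligodendrocytes had ratios of 0.13, 0.05 and -0.07 in that order of comparisons.

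The libraries also differed in depth, with medians of 6640.5, 7634 and 5989 UMIs per D1 nucleus in the urolithin A, high anxiety and low anxiety libraries. With each nucleus thinned to 1500 UMIs, the Errfi1 ratio of D1 neurons was 0.30 for urolithin A over low anxiety and 0.28 for high anxiety over low anxiety, both short of the 25% mark. In D2 neurons the thinned ratios were 0.24 and 0.40. With the filter raised to 1000 genes and lowered to 1% mitochondrial UMIs, Errfi1 in eccentric neurons turned to -0.44 for urolithin A over high anxiety and -0.07 for urolithin A over low anxiety. Markers of other cell types in D1 neurons summed to 183, 154 and 137 CPM for the 11 oligodendrocyte markers and 69.1, 63.6 and 64.1 CPM for the 11 microglial markers, the classes in which Errfi1 was highest. The part of these markers in the Errfi1 ratios was not tested.

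**Figure D4:**
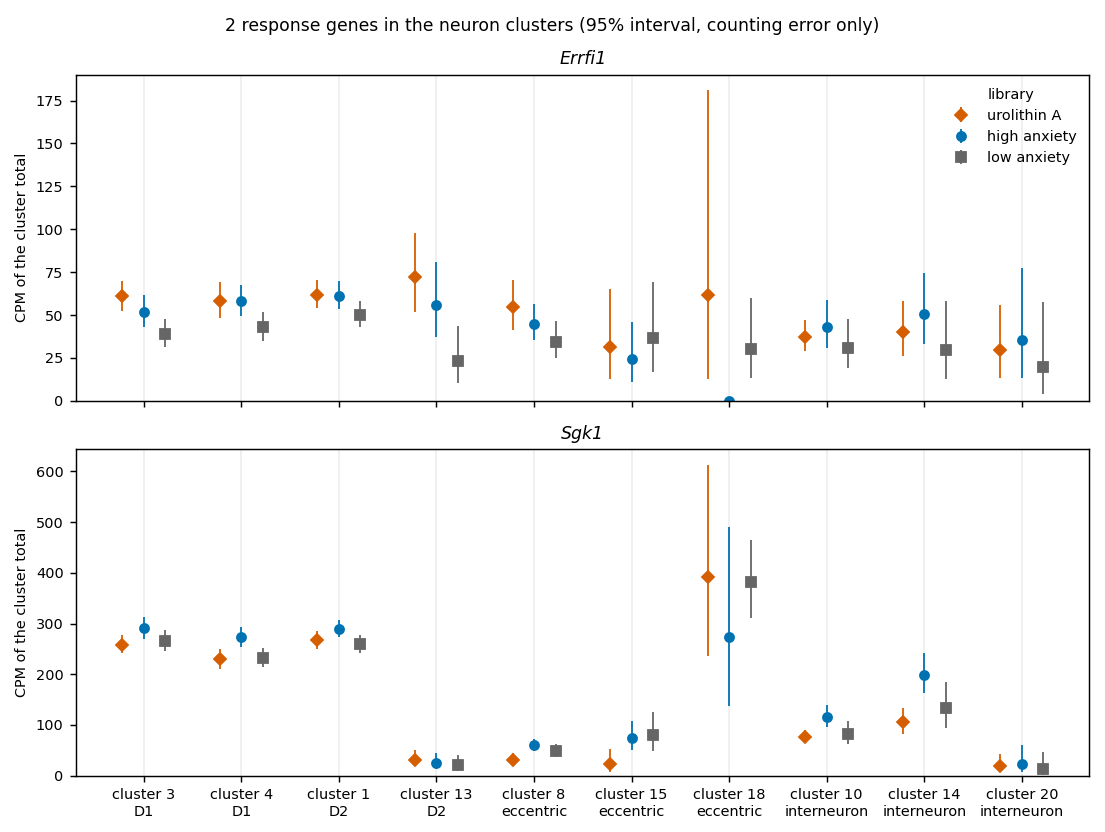
Errfi1 (upper panel) and Sgk1 (lower panel) as CPM of the cluster total in 10 neuron clusters, with 1 point per library and exact 95% intervals for counting error. Errfi1 in the low anxiety library lies below the other libraries in both D1 and both D2 clusters, and Sgk1 reaches 274 to 393 CPM in eccentric cluster 18, which holds 103 low anxiety nuclei and few others.

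Nr3c1 differed little between libraries in medium spiny neurons of the D1 and D2 classes. D1 neurons had 171, 179.7 and 173 CPM and D2 neurons 185, 188 and 177 CPM in the urolithin A, high anxiety and low anxiety libraries, with all 6 log2 ratios between -0.07 and 0.09. Interneurons had 119 CPM in the urolithin A library, 80.2 CPM in the high anxiety library and 82.0 CPM in the low anxiety library, and the ratio was 0.57 (0.28 to 0.88) for urolithin A over high anxiety and 0.54 (0.20 to 0.89) for urolithin A over low anxiety. One cluster with Crh, Galr1 and Klhl1 among its leading genes (cluster 10) held 229 of the 364 urolithin A, 97 of the 184 high anxiety and 98 of the 162 low anxiety interneurons and had 142, 83.1 and 94.6 CPM. Without that cluster the ratios were 0.01 and 0.31, neither past the 25% mark. The difference for urolithin A over high anxiety therefore rests on that cluster, while that for urolithin A over low anxiety kept its direction and fell just short of the mark. With nuclei thinned to 1500 UMIs the ratios were 0.94 and 0.91, the highest of 12 alternatives. Over those 12 they ran from 0.01 to 0.94 and from 0.19 to 0.91, each past the mark in 10. Changing only a cluster of another class leaves both ratios as they were, past the mark, so 10 of 12 overstates their stability.

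In oligodendrocyte precursors Nr3c1 had 324 CPM (131 UMIs) in the urolithin A library, 194 CPM (86 UMIs) in the high anxiety library and 251 CPM (99 UMIs) in the low anxiety library. The log2 ratio was 0.74 (0.34 to 1.15) for urolithin A over high anxiety, 0.37 (-0.02 to 0.76) for urolithin A over low anxiety and -0.37 (-0.80 to 0.06) for high anxiety over low anxiety. The receptor balance of the class was 0.206, 0.419 and 0.323 Nr3c2 UMIs per Nr3c1 UMI in the urolithin A, high anxiety and low anxiety libraries. It divides 27, 36 and 32 Nr3c2 UMIs by those same Nr3c1 UMIs, so it is not a separate observation. D1 markers summed to 74.2, 90.1 and 199.9 CPM in these nuclei, and their part in the result was not tested. High anxiety over low anxiety also gave 0.37 (0.07 to 0.67) in eccentric neurons and 0.34 (-0.07 to 0.75) in microglia.

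Nr3c2 passed the 25% mark in D1 neurons only among the 6 classes where it was measured, and in 1 comparison. D1 neurons had 234 CPM (1244 UMIs) in the urolithin A library, 274 CPM (1440 UMIs) in the high anxiety library and 218 CPM (1049 UMIs) in the low anxiety library. The high anxiety over low anxiety ratio was 0.33 (0.21 to 0.44), just past the mark, and urolithin A over high anxiety had -0.23 (-0.34 to -0.12). In D1 cluster 4 the gene had 199, 272 and 192 CPM and in D1 cluster 3 it had 257, 276 and 247 CPM, so the high anxiety library was highest in both. The high anxiety over low anxiety ratio was 0.51 (0.34 to 0.67) in cluster 4 and 0.16 (-0.01 to 0.32) in cluster 3, the largest D1 cluster, so passing the mark rests on cluster 4. Cluster 4 has Nmb, Drd3 and Htr4 among its leading genes, and its mean log2 enrichment was 0.46 for D1 markers and 0.85 for shared medium spiny neuron markers, against 1.36 and 0.52 in cluster 3. The class ratio was 0.50 with nuclei thinned to 1500 UMIs, the highest of 12 alternatives. Over those 12 it ran from 0.16 to 0.50 and was past the mark in 7. Alternatives that change only a cluster of another class leave the class ratio as it was, just past the mark, so 7 of 12 overstates its stability. D2 neurons had 246, 270.4 and 291 CPM, with ratios of -0.13 (-0.26 to -0.01) for urolithin A over high anxiety, -0.24 (-0.36 to -0.12) for urolithin A over low anxiety and -0.11 (-0.23 to 0.01) for high anxiety over low anxiety. In the class totals the library with the highest Nr3c2 level thus differed between D1 and D2 neurons. D2 cluster 1 had 237, 274 and 281 CPM, and its high anxiety over low anxiety ratio was -0.04 (-0.16 to 0.09). D2 cluster 13 had 303, 241 and 378 CPM, with -0.65 (-1.01 to -0.29) for high anxiety over low anxiety. For urolithin A over high anxiety the clusters differed in direction, with -0.21 (-0.34 to -0.08) in cluster 1 and 0.33 (-0.01 to 0.68) in cluster 13.

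Sgk1 differed in direction between classes. D1 and D2 neurons stayed within the 25% mark, with ratios of -0.19 (-0.30 to -0.08) and -0.14 (-0.27 to -0.02) for urolithin A over high anxiety and 0.18 (0.07 to 0.29) and 0.14 (0.01 to 0.27) for high anxiety over low anxiety. Interneurons had 77.5 CPM in the urolithin A library, 132 CPM in the high anxiety library and 85.6 CPM in the low anxiety library. Their ratio was -0.77 (-1.05 to -0.49) for urolithin A over high anxiety and 0.63 (0.27 to 0.99) for high anxiety over low anxiety. The high anxiety library was highest in both larger interneuron clusters, with 77.0, 116 and 82.8 CPM in cluster 10 and 105, 199 and 133 CPM in cluster 14.

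Oligodendrocytes had 72.9 CPM of Sgk1 in the urolithin A library, 45.5 CPM in the high anxiety library and 57.2 CPM in the low anxiety library. Their ratio was 0.68 (0.27 to 1.10) for urolithin A over high anxiety, 0.35 (-0.10 to 0.82) for urolithin A over low anxiety and -0.33 (-0.82 to 0.16) for high anxiety over low anxiety. In the largest oligodendrocyte cluster (cluster 2) the levels were 74.8, 41.6 and 41.7 CPM, and high anxiety over low anxiety was -0.01. Under 12 alternatives the urolithin A over high anxiety ratio ran over 0.33 to 1.43. It ran over 0.22 to 0.84 for urolithin A over low anxiety and -1.21 to -0.01 for high anxiety over low anxiety. The mark was passed in 12, 8 and 8 of the alternatives in that order of comparisons. Alternatives that change only a cluster of another class leave these ratios as they were, past the mark, so the counts overstate their stability. The precursors had 0.34, -0.16 and -0.50 in the same order of comparisons. D2 markers, the markers of a class high in Sgk1, summed to 48.0, 47.6 and 109.8 CPM in oligodendrocytes of the urolithin A, high anxiety and low anxiety libraries, and their part in the result was not tested.

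In eccentric neurons Sgk1 had 42.9, 66.5 and 104.5 CPM in the urolithin A, high anxiety and low anxiety libraries. The ratio was -0.63 (-1.10 to -0.18) for urolithin A over high anxiety, -1.29 (-1.74 to -0.85) for urolithin A over low anxiety and -0.65 (-0.98 to -0.32) for high anxiety over low anxiety. Without cluster 18 these became -1.06, -0.84 and 0.22, so the direction for high anxiety over low anxiety was set by the number of nuclei in that cluster. Thinned to 1500 UMIs per nucleus, urolithin A over high anxiety was 0.03. In the largest eccentric cluster alone, urolithin A over high anxiety was -0.93 (-1.53 to -0.35).

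Fkbp5, Tsc22d3 and Hsd11b1 passed the 25% mark in no class where they were measured. Fkbp5 was measured in D1, D2 and eccentric neurons in all comparisons and in interneurons in those with urolithin A, and its ratio furthest from 0 was -0.30 (-0.69 to 0.08) in eccentric neurons for urolithin A over low anxiety. Tsc22d3 in oligodendrocytes had 0.00 (-0.20 to 0.19) for urolithin A over high anxiety, -0.13 (-0.35 to 0.10) for urolithin A over low anxiety and -0.12 (-0.34 to 0.09) for high anxiety over low anxiety. A ratio short of the mark does not show that the libraries were alike.

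Lists of the surrounding pathway were read in the same way. Of 51 other glucocorticoid response genes, 48 were matched, and 37 had at least 100 UMIs. Astrocytes were the highest class for 14 of these, microglia for 7 and oligodendrocytes for 5, while D1 and D2 neurons were highest for none. Among all 9893 genes with at least 500 UMIs, 939 were highest in astrocytes, 1058 in microglia, 975 in oligodendrocytes and 413 in D1 neurons. Having no gene of 37 highest in D1 neurons is therefore near the share over all genes, although the minimum of UMIs differs between these sets. No such share is given for D2 neurons. The astrocyte count, 14 of 37, lies above the share of 939 of 9893, with the same limit, and the difference was not tested. For urolithin A over high anxiety 15 of 87 measured pairs of gene and class were higher (17.2%) and 8 lower (9.20%). For urolithin A over low anxiety 18 of 83 were higher (21.7%) and 5 lower (6.02%), and for high anxiety over low anxiety 13 of 78 were higher (16.7%) and 6 lower (7.69%). The backgrounds are those given for the members. In D1 neurons the median of the list was 0.12 for urolithin A over high anxiety, 0.17 for urolithin A over low anxiety and -0.03 for high anxiety over low anxiety, against 0.04, 0.01 and -0.01 over all measured genes.

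Among them, Glul, the glutamine synthetase of astrocytes, had 453 CPM in urolithin A astrocytes and 402 CPM in high anxiety astrocytes, against 258 CPM in low anxiety astrocytes. Its ratio there was 0.81 (0.47 to 1.16) for urolithin A over low anxiety and 0.64 (0.30 to 0.99) for high anxiety over low anxiety. In D1 neurons Ndrg2, a gene highest in astrocytes, had 19.2 CPM in the urolithin A library and 4.94 CPM in the high anxiety library (ratio 1.96, 1.32 to 2.64). Glul in D1 neurons had 17.5 CPM in the urolithin A library and 7.6 CPM in the high anxiety library (ratio 1.20, 0.65 to 1.77). The 11 astrocyte markers summed to 502 CPM in urolithin A D1 neurons and 674 CPM in high anxiety D1 neurons, and their part in these ratios was not tested. Gpd1, a glycerol phosphate dehydrogenase highest in oligodendrocytes, had 13.7 CPM in high anxiety D1 neurons and 7.28 CPM in low anxiety D1 neurons (ratio 0.91, 0.31 to 1.54).

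All 14 receptor chaperones and co-chaperones were matched. For urolithin A over high anxiety 9 of 67 measured pairs were higher (13.4%) and 2 lower (2.99%), against backgrounds of 12.6% and 9.15%. Among 65 pairs for urolithin A over low anxiety 10 were higher (15.4%) and 9 lower (13.8%), against 13.7% and 11%. For high anxiety over low anxiety 8 of 69 were higher (11.6%) and 12 lower (17.4%), against 13.3% and 13.4%. Fkbp4, the co-chaperone that competes with FKBP5 for the receptor complex, had 14.3 CPM in high anxiety D1 neurons and 23.7 CPM in low anxiety D1 neurons (ratio -0.74, -1.18 to -0.30). Ptges3, which encodes the chaperone p23, had 111 CPM in high anxiety oligodendrocytes and 60.8 CPM in low anxiety oligodendrocytes (ratio 0.87, 0.47 to 1.29). Hspa8, a constitutive heat shock cognate protein, had 91.8 CPM in urolithin A D1 neurons and 69.5 CPM in high anxiety D1 neurons (ratio 0.40, 0.20 to 0.60).

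The 18 receptor coregulators gave 4 higher (3.54%) and 9 lower (7.96%) of 113 pairs for urolithin A over high anxiety. They gave 10 higher (8.93%) and 11 lower (9.82%) of 112 for urolithin A over low anxiety, and 13 higher (11.1%) and 8 lower (6.84%) of 117 for high anxiety over low anxiety, all below the backgrounds. Of the 10 genes of corticosteroid metabolism and transport, 5 had at least 100 UMIs. Hsd11b2, which encodes the enzyme that inactivates corticosterone, had 6 UMIs in all libraries, and H6pd, which supplies the cofactor of the Hsd11b1 enzyme, was highest in astrocytes at 8.82 CPM and next highest at 8.25 CPM. Of their measured pairs 2 of 9 were higher (22.2%) and 1 lower (11.1%) for urolithin A over high anxiety, 1 of 9 higher (11.1%) and 1 lower (11.1%) for urolithin A over low anxiety, and 0 of 11 higher and 1 lower (9.09%) for high anxiety over low anxiety, too few to read against the backgrounds. The 4 other steroid receptors gave 3 higher (33.3%) and 1 lower (11.1%) of 9 pairs for urolithin A over high anxiety. For urolithin A over low anxiety they gave 4 higher (44.4%) and 0 lower of 9. For high anxiety over low anxiety they gave 4 higher (57.1%) and 1 lower (14.3%) of 7, again too few to read. Among them Esr2, an oestrogen receptor, had 17.8 CPM in urolithin A D1 neurons and 11.7 CPM in low anxiety D1 neurons (ratio 0.61, 0.12 to 1.12). The 11 relatives and partners of Sgk1, Tsc22d3 and Errfi1 gave 4 higher (8.89%) and 5 lower (11.1%) of 45 pairs for urolithin A over high anxiety. They gave 8 (18.2%) and 5 (11.4%) of 44 for urolithin A over low anxiety, and 7 (15.9%) and 3 (6.82%) of 44 for high anxiety over low anxiety. Erbb4, a neuregulin receptor of the EGF receptor family, had 249 CPM in urolithin A D1 neurons and 354 CPM in high anxiety D1 neurons (ratio -0.51, -0.61 to -0.41). In astrocytes its ratio for that comparison was 0.71 (0.24 to 1.18).

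The other likeness values were lower. The nearest genes over the 12 classes were Mtpn for Nr3c1 (r = 0.91), Gk5 for Nr3c2 (0.91), Sars2 for Fkbp5 (0.89), Ptbp3 for Errfi1 (0.89) and Arhgap20 for Sgk1 (0.87). The members themselves were less alike, with r = 0.36 between Nr3c1 and Nr3c2, -0.13 between Nr3c1 and Fkbp5 and -0.76 between Sgk1 and Hsd11b1.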

How the data were processed

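Nuclei were profiled with the droplet 3' chemistry v3.1 named in the labels' protocols, 1 library per group. The deposited matrices hold whole-number UMI counts per gene and nucleus, which the authors made (Cell Ranger 7.1.0 is named, per the file headers), with mRatBN7.2 as the genome build (from the submitters' processing notes). The sources used here do not give whether intronic reads were counted. A nucleus was kept with 500 genes or more and no more than 5% of UMIs from mitochondrial genes, and likely doublets were called and removed (Scrublet in scanpy 1.11.5, expecting 0.8% per 1000 nuclei). Values were scaled to 10000 UMIs, and 2000 variable genes without the 7 members, 30 principal components, 15 neighbours and Leiden clustering at resolution 1 gave the clusters, named from 17 marker lists (151 of 159 symbols matched). UMIs were then summed per class and library. Ratios carry exact conditional (Clopper-Pearson) 95% intervals and levels exact Poisson ones, and a zero allows 3 counts. Only the ratio intervals were run on simulated data, Poisson counts drawn from D1 means. Such draws hold no spread between nuclei or animals, so they check the calculation only. PCR duplicates are removed by UMIs, but intervals cover counting error only. Members and lists (105 of 108 pathway symbols matched) were chosen with earlier results of these data known. Named pathway genes are the 3 furthest from 0 per list and comparison over D1 and D2 neurons, oligodendrocytes and astrocytes, not all of them printed; likeness is Pearson r of log2(CPM + 10) among genes with at least 1000 UMIs. Clusters 4, 7, 10, 16 and 18, and clusters 13 and 15 for the receptor balance, were singled out after their values were seen. Alternatives are described in the closing section.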

Additional observations from a re-analysis of the deposited data

Results flagged for a closer look

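Sgk1 moved in opposite directions in pairs of cell classes under the same comparison of libraries, each past the 25% mark and with a counting interval on 1 side of 0. For high anxiety over low anxiety the log2 ratio was 0.63 in GABAergic interneurons and -0.65 in eccentric neurons. For urolithin A over high anxiety it was 0.68 in oligodendrocytes, against -0.63 in eccentric neurons and -0.77 in GABAergic interneurons. The difference between the classes was not tested in any of these pairs, since each class has 1 library per group. The eccentric value for high anxiety over low anxiety was 0.22 without cluster 18.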

How the results depend on the processing

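No paired analysis was possible because each group has 1 library, and no library could be left out of a comparison for the same reason. Of 16 alternatives (13 planned, and 3 on clusters chosen after seeing the data), 4 change only which pairs are counted. Over the other 12, the 26 pairs past the 25% mark gave 312 values. Of these, 288 kept their direction and moved by less than their counting interval, 19 moved further and 5 reversed. The 3 alternatives on chosen clusters change 1 class each, and the largest cluster is the whole class where a class has 1 cluster. Values left unchanged in this way are the same by design and are counted in the 288, so 288 of 312 overstates the stability. The reversed values were Errfi1 in eccentric neurons under a filter of 1000 genes and 1% mitochondrial UMIs (-0.44 for urolithin A over high anxiety, -0.074 for urolithin A over low anxiety), Sgk1 in eccentric neurons for high anxiety over low anxiety (0.32 in the largest cluster, 0.22 without cluster 18), and Sgk1 in eccentric neurons for urolithin A over high anxiety after thinning to 1500 UMIs (0.032). The cause was not tested, apart from the nuclei of cluster 18. Counts of pairs past the fold changed more. With no minimum of UMIs, 10 were higher and 7 lower for urolithin A over high anxiety, 14 and 8 for urolithin A over low anxiety, and 15 and 11 for high anxiety over low anxiety, since pairs with few UMIs enter. With 20 UMIs the lower counts were 5 for urolithin A over high anxiety and 4 for urolithin A over low anxiety; with 100 UMIs, 3 were higher for urolithin A over high anxiety and 1 lower for high anxiety over low anxiety. At 1.5-fold, 2 were higher for urolithin A over high anxiety, 0 higher for urolithin A over low anxiety, and 2 higher and 1 lower for high anxiety over low anxiety. With the stricter filter on nuclei, 3 were higher for urolithin A over high anxiety, 3 higher and 3 lower for urolithin A over low anxiety, and 4 higher for high anxiety over low anxiety. The lower count for urolithin A over low anxiety became 2 with the looser filter, at Leiden resolutions 0.5 and 2 and with the mean over nuclei, and 3 with doublets kept, where 3 were higher for urolithin A over high anxiety. With the largest cluster of each class, 2 were lower for high anxiety over low anxiety.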
